A study of Mus musculus with 8 samples.

Results

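Rab GTPases were described as the genes of the deposited expression table whose symbol is Rab followed by a number, with an optional letter and digit. The rule took 58 of the 17518 listed genes and left out effectors such as the Rab11fip genes. RNA sequencing covered 8 libraries of MH-S, a mouse alveolar macrophage cell line, in a study of nanoparticles that respond to reactive oxygen species in acute lung injury. Control cells received phosphate-buffered saline (n = 3). A second group received LPS (n = 2), the lipopolysaccharide of Gram-negative bacteria, which macrophages sense through TLR4, at a dose the labels do not state for LPS alone. The third group received 100 ng/mL LPS together with 1 µg/mL of the nanoparticles, named RCMNs (n = 3). There was no group with RCMNs and no LPS, so all statements on RCMNs concern cells that also received LPS. Whether the replicates came from separate cultures is not in the labels, and the p-values therefore reflect the spread of these libraries alone, which may be technical.

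Rab proteins are small GTPases of the Ras superfamily that mark the membranes of the secretory and endocytic routes. In the GTP-bound form a Rab recruits effectors that move, tether or fuse vesicles. Exchange factors load the GTP, GTPase-activating proteins end the active state, and escort proteins, a prenyl transferase and GDP dissociation inhibitors carry the lipid-anchored protein to and from membranes. In macrophages these routes carry phagosomes to lysosomes, bring the LPS receptor TLR4 to the surface and into endosomes, and release cytokines.

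RefSeq promoter sequences (build GRCm38.p6) matched 48 of the 58 genes. The 250 bases before the start site of 4 members on which the results turn are printed 5′ to 3′ on the gene's strand. Rab20 and Rab32 were higher with LPS than in control cells, and Rab31 and Rab8b were higher with LPS+RCMNs than with LPS. Capitals mark ACGTG and GGGCGG on either strand. In Rab20 the ACGTG matches are the forward and reverse readings of 1 palindrome, CACGTG, and GGGCGG, the GC box, occurred once. The Rab20 window is chr8:11478641-11478890, the Rab32 window chr10:10558208-10558457, the Rab31 window chr17:65772753-65773002 and the Rab8b window chr9:66919706-66919955, all on the minus strand.
Rab20: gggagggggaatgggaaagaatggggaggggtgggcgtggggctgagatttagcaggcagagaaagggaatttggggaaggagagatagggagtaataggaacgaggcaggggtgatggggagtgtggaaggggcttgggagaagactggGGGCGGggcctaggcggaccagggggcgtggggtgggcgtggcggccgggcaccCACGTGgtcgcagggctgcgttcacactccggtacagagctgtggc
Rab32: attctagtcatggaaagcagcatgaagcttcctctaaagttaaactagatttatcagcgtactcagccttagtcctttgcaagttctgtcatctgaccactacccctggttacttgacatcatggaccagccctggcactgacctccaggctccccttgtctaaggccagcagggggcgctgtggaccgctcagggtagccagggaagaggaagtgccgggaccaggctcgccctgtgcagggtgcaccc
Rab31: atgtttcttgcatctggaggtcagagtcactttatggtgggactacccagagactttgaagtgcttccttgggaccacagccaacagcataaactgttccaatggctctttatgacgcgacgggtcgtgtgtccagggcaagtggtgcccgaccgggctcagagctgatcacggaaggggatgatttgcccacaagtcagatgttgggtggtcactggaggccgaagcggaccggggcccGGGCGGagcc
Rab8b: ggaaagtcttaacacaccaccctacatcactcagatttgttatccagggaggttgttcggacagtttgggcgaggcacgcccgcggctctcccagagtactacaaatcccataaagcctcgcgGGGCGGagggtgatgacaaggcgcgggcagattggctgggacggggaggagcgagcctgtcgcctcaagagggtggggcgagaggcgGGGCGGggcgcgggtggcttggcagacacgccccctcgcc

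GGGCGG was present in 33 of the 48 Rab windows (68.8%), against 32.9% of all 27025 promoters of the same length. The median GC content was 60.6% for Rab genes and 52.0% for all promoters. The E-box CACGTG stood in 4 Rab windows (8.33%, against 6.05% of all promoters), those of Rab20, Rab21, Rab23 and Rab5a. GGGNNTTCC, a core of NF-kappaB sites, stood in 3 (6.25%, against 4.88%), those of Rab11a, Rab11b and Rab28. TGANTCA, the AP-1 motif, stood in 1 (2.08%, against 6.87%), that of Rab34. Both strands were searched, and a letter match is a description of the window and no evidence of binding.

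A library held 18.64 to 21.22 M (mega) counts. Levels are given as CPM, counts per M of library size scaled by edgeR's TMM method, for the same gene across libraries, and as the authors' FPKM, per kb of gene, between genes. A count of 0 allows a level of up to 0.130 to 0.182 CPM, depending on the library, for counting error only. Within their groups, control replicate 1 differed from the other control libraries, and LPS+RCMNs replicate 2 from the other LPS+RCMNs libraries, by more than sampling noise. Over all genes the chi-square per degree of freedom of these pairs was 37.5 to 49.9, while the remaining pairs within these groups had 1.96 and 2.91, and the LPS pair had 13.3. Over the Rab genes the same values were 10.3 to 14.9, 1.33, 1.60 and 17.3. The counts of called members are therefore also given without those 2 libraries. Of the macrophage markers, Cd68, Csf1r, Lyz2 and Adgre1 were between 288 and 3820 CPM in every library, but the alveolar macrophage markers Siglecf, Marco, Chil3 and Pparg were between 0 and 1.32 CPM. The rest of the list was present in every library. Itgam had 364 to 1350 CPM, Fcgr1 48.3 to 185, Mrc1 64.6 to 301 and Itgax 6.24 to 25.7.

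Rab7, which drives fusion of late endosomes with lysosomes, had the highest FPKM of the family in all 8 libraries. Its level was 247.05, 208.78 and 205.34 FPKM in control, 235.29 and 198.67 FPKM with LPS, and 235.57, 228.45 and 222.90 FPKM with LPS+RCMNs. The 3 groups overlapped on this scale. In control cells the next levels were those of Rab31 (122 ± 5.07 FPKM, SD, n = 3), Rab1a (113 ± 9.12), Rab5c (94.3 ± 5.88), Rab1b (92.8 ± 6.12) and Rab14 (91.7 ± 2.40). Rab31, which works between the trans-Golgi and endosomes, and Rab1a, the endoplasmic reticulum to Golgi Rab, did not overlap with Rab5c, Rab1b and Rab14, whose ranges overlapped with each other. The 6 most abundant members made up 46.3% to 50.9% of the summed Rab FPKM of a library. With LPS the order after Rab7 was Rab1b (104 ± 19.2 FPKM, SD, n = 2), Rab5c (94.5 ± 11.6), Rab1a (87.1 ± 1.90), Rab31 (60.3 ± 6.31) and Rab11a (52.8 ± 2.79), and Rab5c overlapped with both Rab1b and Rab1a. Rab7b ranked 7 in control cells (59.7 ± 3.35 FPKM), 29 with LPS (9.82 ± 0.0141) and 8 with LPS+RCMNs (62.6 ± 11.2). At the low end, 13 members did not pass the filter on low counts, among them the neuronal and epithelial Rab3b, Rab3c, Rab26, Rab27b, Rab17 and Rab25. The highest level of any of the 13 was 0.37 FPKM, or 0.485 CPM. Rab26 had 0.484 and 0.485 CPM with LPS and 0 in the other 6 libraries.

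Summed over all 58 genes, Rab transcripts took 3307 to 3568 CPM in control, 3496 and 3848 CPM with LPS, and 3564 to 3822 CPM with LPS+RCMNs, with overlap between the groups. The summed FPKM was 1458.0 to 1646.3 in control, 1321.0 and 1226.7 with LPS, and 1526.8 to 1583.7 with LPS+RCMNs. On that scale, which has no TMM scaling, both LPS libraries lay below all the others, so the position of LPS depended on the scale.

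LPS against control shows how the family stood in cells given LPS. Of 45 tested members 20 were higher, 13 lower and 12 not called, by edgeR's quasi-likelihood test at a Benjamini-Hochberg adjusted p below 0.05. That is 73.3% of members, against 63.4% of all 11911 tested genes (31.4% higher and 32.1% lower). The median log2 fold change was 0.17 over the members and -0.04 over all genes. These libraries carried a trend on transcript length: Spearman's rho of log2 fold change with length was -0.58 across all tested genes and -0.27 across the 45 members, as a description only, since genes of 1 set of libraries are not independent. With a smooth surface on length and mean level removed from each library, 11 members were higher, 14 lower and 20 not called, against 42.8% of all genes called (21.5% higher and 21.3% lower), and the members' median was -0.18. On limma's log2(FPKM + 1), which carries no TMM scaling and moves the median of all genes to -0.33, 5 members were higher and 23 lower, against 17.7% and 49.7% of all genes. The sign of a small change therefore depended on the scale, and the value after removal of the surface, here called the length-corrected value, is given beside the fitted one. The counts by role that follow stand against the same shares of all genes, 63.4% called as fitted and 42.8% after length correction. Called the same way as fitted and under every alternative that tested them were Rab11a, Rab20, Rab32, Rab33b and Rab42, which rose, and Rab7b, Rab14, Rab19, Rab39, Rab40c and Rab43, which fell (a fold minimum, which removes small changes by construction, is left aside). The share of all genes called under every alternative was not computed.

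The LPS libraries also held red blood cell marker transcripts at a summed 4360 and 5620 CPM, against 0.658 to 34.1 CPM in the other 6 libraries, led by Hbb-bs, Hba-a2, Hba-a1 and Hbb-bt. Neutrophil markers summed to 5.57 and 5.94 CPM there, against at most 0.709 CPM elsewhere. In the LPS libraries S100a8 had 2.24 and 2.12 CPM and S100a9 2.18 and 2.67 CPM. Camp and Retnlg had 0.363 to 0.606 CPM there, and Ly6g, Mpo, Elane and Ngp only 0 to 0.182 CPM. Lymphocyte (at most 1.03 CPM), epithelial (at most 0.484 CPM) and fibroblast and endothelial (1.73 to 3.63 CPM) markers were low in every library. The part of these transcripts in the differences between LPS and the other groups was not tested. In such bulk samples, fewer cells of a type and less RNA per cell cannot be told apart.

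**Figure D1:**
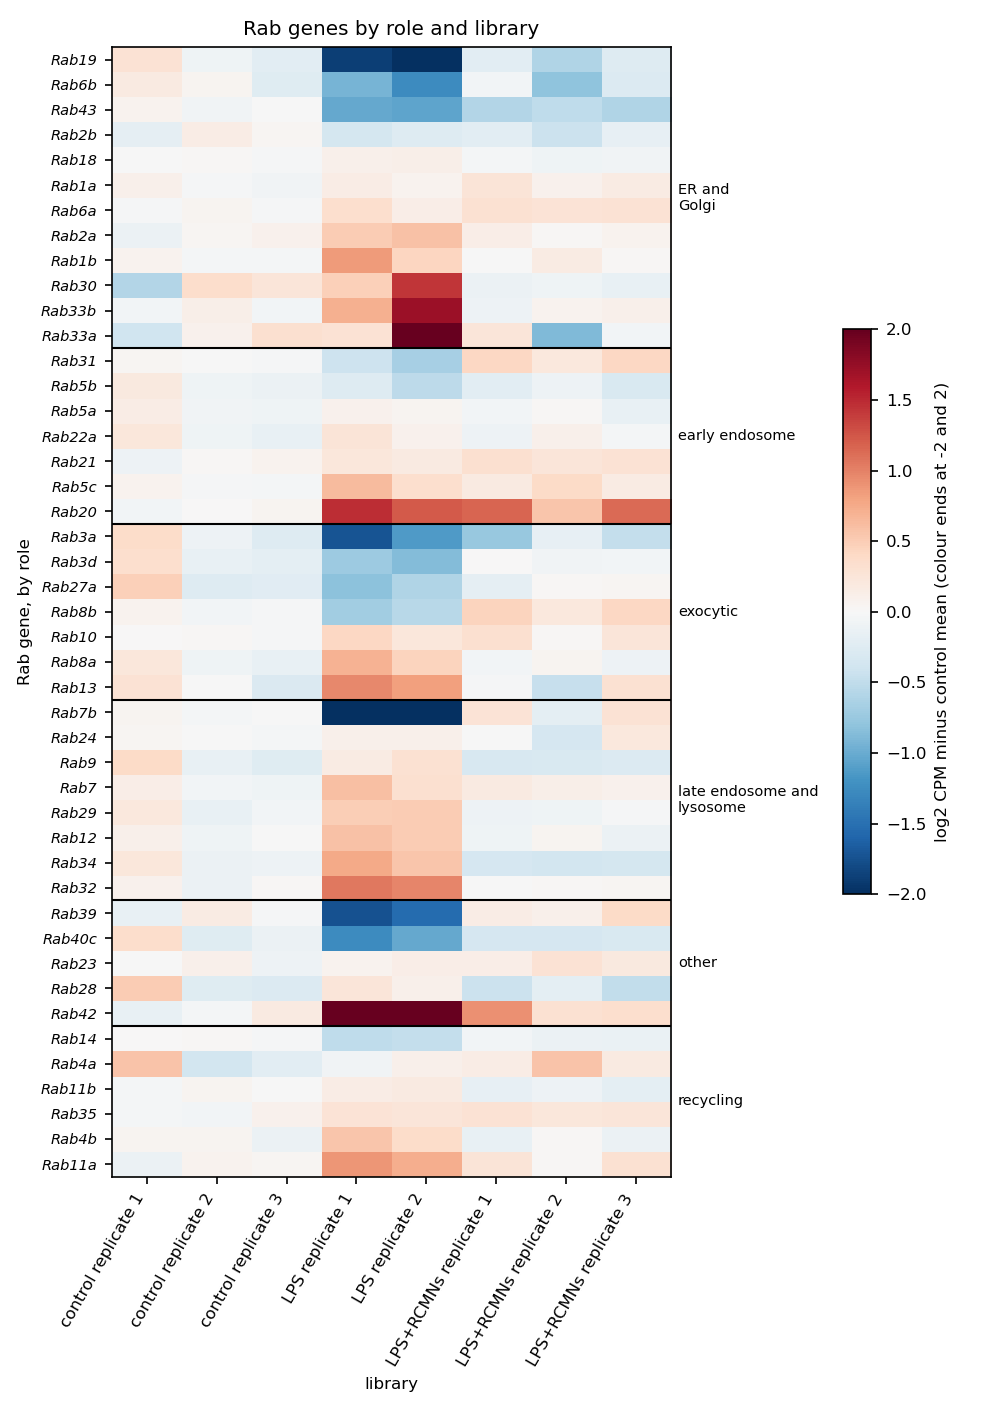
Each row is 1 of the 45 tested Rab genes, grouped by role, and each column 1 library. Colour is log2 CPM minus the mean of the 3 control libraries, with the scale ending at -2 and 2. The 2 LPS libraries stand apart from the other 6, with Rab7b, Rab19 and Rab39 in blue and Rab32, Rab33b and Rab42 in red. Rab20 is red in the LPS libraries and also with LPS+RCMNs, at 13.9 to 21.2 CPM against 9.1 to 9.85 CPM in control.

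Among Rabs of late endosomes and lysosomes, 5 of 8 tested members rose with LPS, 1 fell and 2 did not pass the test (median log2 fold change 0.48). After length correction 1 rose and 4 fell (median -0.28), and on log2(FPKM + 1) 1 rose and 2 fell (median -0.02). Rab7b (gene ID 226421, chromosome 1, 131688681 to 131715443 in the GRCm38.p6 gene table) acts between late endosomes, lysosomes and the trans-Golgi and is known to promote degradation of TLR4. Its level was 247, 231 and 237 CPM in control, 55.8 and 54.3 CPM with LPS, and 288, 207 and 291 CPM with LPS+RCMNs. Both LPS libraries lay below all the others. The log2 fold change with LPS was -2.11 (SE 0.16, edgeR adjusted p = 5.7e-06), it was -1.78 after length correction, and it ran from -2.59 to -1.58 over the alternatives. As fitted this was the fall of largest size among the members, while after length correction Rab19 was lower, at -2.18. Rab32 (67844, chromosome 10, 10545039 to 10558207), which serves lysosome-related organelles and the containment of Salmonella in macrophages, had 60.2, 51.9 and 57.6 CPM in control, 117 and 111 CPM with LPS, and 56.0, 57.4 and 58.3 CPM with LPS+RCMNs. It rose by a log2 fold change of 1.01 (SE 0.09, edgeR adjusted p = 1.68e-05), or 0.60 after length correction, and the control and LPS+RCMNs ranges overlapped. Rab7 itself had 460, 404 and 396 CPM in control and 639 and 523 CPM with LPS. Its log2 fold change of 0.47 (SE 0.11, edgeR adjusted p = 0.00484) turned to -0.18 after length correction and to -0.02 on log2(FPKM + 1). Rab34, a Rab of lysosome position and of cilia, had 41.2, 32.6 and 32.9 CPM in control, 59.8 and 52.2 CPM with LPS, and 28.1, 27.4 and 27.7 CPM with LPS+RCMNs, a log2 fold change of 0.65 with LPS (SE 0.13, edgeR adjusted p = 0.00149) that was -0.07 after length correction. Rab29, a partner of the kinase LRRK2, was called in opposite directions by the 2 fits, with log2 fold changes of 0.48 and -0.37.

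Of the early endosome Rabs 2 rose, 2 fell and 3 were not called (7 tested, median 0.17), with medians of -0.20 after length correction and -0.29 on log2(FPKM + 1). Rab20 (19332, chromosome 8, 11453390 to 11478640), a Rab of macrophage phagosomes and endosomes, had 9.10, 9.50 and 9.85 CPM in control, 26.5 and 22.1 CPM with LPS, and 21.2, 13.9 and 20.8 CPM with LPS+RCMNs. All 5 libraries with LPS, alone or with RCMNs, lay above all 3 controls. Its log2 fold change with LPS was 1.35 (SE 0.19, edgeR adjusted p = 0.000227), 0.82 after length correction, and 0.70 to 1.54 over the alternatives. Of its annotated exon bases 25.6% overlap the opposite-strand RNA E230013L22Rik, and whether the counting used strand is not given in the sources used here. Rab31 (106572, chromosome 17, 65651726 to 65772752) had 388, 377 and 371 CPM in control, 285 and 239 CPM with LPS, and 506, 439 and 505 CPM with LPS+RCMNs. The 3 groups did not overlap. With LPS it fell by 0.53 on the log2 scale (SE 0.11, edgeR adjusted p = 0.0022) and was -0.62 after length correction, and -0.35 without LPS replicate 2, although the call was lost when a trend on length alone was removed (adjusted p = 0.0621). The 3 forms of Rab5, which drives fusion of early endosomes, were called in different directions or not at all. Rab5c had 167, 156 and 155 CPM in control and 247 and 201 CPM with LPS, a log2 fold change of 0.49 (SE 0.11, edgeR adjusted p = 0.00445) that was -0.15 after length correction and near 0 on log2(FPKM + 1). Rab5b had 54.2, 44.7 and 43.9 CPM in control and 39.5 and 32.9 CPM with LPS, a log2 fold change of -0.40 (SE 0.13, edgeR adjusted p = 0.0274) that lost its call under 8 of 20 alternatives, among them the omission of control replicate 1 or 2, LPS replicate 2 or LPS+RCMNs replicate 3. Rab5a had 85.6, 73.0 and 72.8 CPM in control and 81.4 and 80.2 CPM with LPS, and its log2 fold change of 0.07 (SE 0.10, edgeR adjusted p = 0.591) did not pass the test, nor did the length-corrected -0.20. Rab22a, another early endosome Rab, had a log2 fold change of 0.17 (SE 0.14, edgeR adjusted p = 0.319). Without control replicate 1 it was 0.35 and called (adjusted p = 0.0278), and the sign turned to -0.17 after length correction and to -0.29 on log2(FPKM + 1), where it was not called.

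Among recycling Rabs 3 rose, 1 fell and 2 were not called (6 tested, median 0.20), with medians of -0.32 after length correction and -0.22 on log2(FPKM + 1). Rab11a (53869, chromosome 9, 64715300 to 64737756), the Rab of recycling endosomes, had 81.2, 91.8 and 90.2 CPM in control, 161 and 145 CPM with LPS, and 105, 89.1 and 108 CPM with LPS+RCMNs. With LPS it rose by a log2 fold change of 0.80 (SE 0.11, edgeR adjusted p = 0.00021), or 0.46 after length correction. Its paralog Rab11b had a log2 fold change of 0.16 (SE 0.08, edgeR adjusted p = 0.121), and of -0.28 after length correction, where it was called lower (adjusted p = 0.0216), while without LPS+RCMNs replicate 2 it was called higher (0.21, adjusted p = 0.0299). Rab14 (68365, chromosome 2, 35180205 to 35201120), which links the Golgi, early endosomes and the surface, had 251, 255 and 247 CPM in control, 176 and 180 CPM with LPS, and 242, 231 and 229 CPM with LPS+RCMNs. It fell by 0.50 on the log2 scale (SE 0.08, edgeR adjusted p = 0.000593) and was -0.63 after length correction, and the LPS libraries lay below all the others. Rab35, a Rab of fast recycling, had a log2 fold change of 0.25 (SE 0.09, edgeR adjusted p = 0.0269) that turned to -0.11 after length correction and to -0.22 on log2(FPKM + 1), and the call was lost without control replicate 2 or LPS replicate 1.

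All 7 tested exocytic Rabs were called before length correction, 3 higher and 4 lower (median -0.62), against 63.4% of all genes. After it 1 was higher and 1 lower, against 42.8% of all genes called, and on log2(FPKM + 1) 0 were higher and 4 lower. Rab10, which delivers vesicles with TLR4 and with glucose transporters to the surface, had 183, 185 and 180 CPM in control and 244 and 213 CPM with LPS. Its log2 fold change was 0.32 (SE 0.11, edgeR adjusted p = 0.0256), 0.35 after length correction, and -0.17 on log2(FPKM + 1), and the call was lost without LPS replicate 1. Rab8a and Rab8b, which carry vesicles from the Golgi to the surface, had opposite signs as fitted. Rab8a had 80.3, 64.2 and 61.7 CPM in control and 111 and 92.9 CPM with LPS, a log2 fold change of 0.56 (SE 0.13, edgeR adjusted p = 0.00456) and of 0.12 after length correction. Rab8b (235442, chromosome 9, 66843609 to 66919705) had 142, 129 and 133 CPM in control, 83.4 and 91.2 CPM with LPS, and 183, 156 and 179 CPM with LPS+RCMNs, without overlap between the 3 groups. It fell by 0.62 on the log2 scale with LPS (SE 0.10, edgeR adjusted p = 0.000668), and its value after length correction was -0.18 (adjusted p = 0.204). Rab27a, which docks secretory lysosomes and exosome-bearing endosomes, had 18.0, 10.8 and 11.1 CPM in control and 7.33 and 8.48 CPM with LPS. Its log2 fold change was -0.75 (SE 0.24, edgeR adjusted p = 0.0213). The call was lost without LPS replicate 1 (-0.61, adjusted p = 0.16), without LPS replicate 2 (-0.80, adjusted p = 0.0788) and after length correction (-0.46, adjusted p = 0.13). The value was -0.41, and called, when the pair of libraries that stood apart was left out.

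Of the 12 Rabs of the endoplasmic reticulum and Golgi, all tested, 6 rose, 3 fell and 3 were not called (median 0.18), with 5 higher and 2 lower after length correction and 1 higher and 7 lower on log2(FPKM + 1). Rab33b (19338, chromosome 3, 51483966 to 51496228), a Golgi Rab that binds the autophagy protein Atg16l1, had 18.5, 20.9 and 18.5 CPM in control, 31.7 and 62.8 CPM with LPS, and 17.9, 20.2 and 20.7 CPM with LPS+RCMNs. The LPS libraries differed from each other by more than the other 6 did, and both lay above them. Of the annotated exon bases of Rab33b 18.7% overlap the opposite-strand Gm38160. The log2 fold change was 1.29 (SE 0.24, edgeR adjusted p = 0.00113), or 1.63 after length correction. It was 1.74 without LPS replicate 1 and 0.77 without LPS replicate 2, and called in both. Rab1b had 157, 146 and 146 CPM in control and 270 and 201 CPM with LPS, a log2 fold change of 0.66 (SE 0.13, edgeR adjusted p = 0.00153) that was -0.03 after length correction. Rab1a had 305, 281 and 272 CPM in control and 318 and 299 CPM with LPS. Its log2 fold change of 0.11 (SE 0.09, edgeR adjusted p = 0.339) did not pass the test, nor did the length-corrected -0.16, and on log2(FPKM + 1) it was called lower at -0.37.

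Among members of other or less defined routes, Rab39, a Rab of phagosomes, had 2.56, 3.17 and 2.79 CPM in control, 0.848 and 0.969 CPM with LPS, and 3.14, 3.04 and 3.70 CPM with LPS+RCMNs. It fell by 1.64 on the log2 scale with LPS (SE 0.26, edgeR adjusted p = 0.000509), and its length-corrected value was -1.34. Rab40c, a member with a SOCS box that joins ubiquitin ligases, had 23.0, 15.2 and 16.6 CPM in control, 7.51 and 8.85 CPM with LPS, and 14.2, 14.3 and 14.5 CPM with LPS+RCMNs. Its log2 fold change was -1.16 (SE 0.20, edgeR adjusted p = 0.000696), or -1.11 after length correction, and control replicate 1 was the highest of its libraries. Rab42, also of this group, and Rab19 and Rab33a, counted above with the endoplasmic reticulum and Golgi Rabs, lie outside the naming rule because of a low FPKM. These members are named here after their values were seen. Rab19 had 10.6, 8.19 and 7.48 CPM in control, 2.36 and 2.06 CPM with LPS, and 7.51, 5.72 and 7.26 CPM with LPS+RCMNs. It fell by 1.98 on the log2 scale with LPS (SE 0.24, edgeR adjusted p = 8.44e-05), and its length-corrected value was -2.18. Rab42 had 0.520, 0.559 and 0.650 CPM in control, 3.03 and 16.3 CPM with LPS, and 1.08, 0.709 and 0.721 CPM with LPS+RCMNs. The log2 fold change of Rab42 was 4.05 (SE 0.62, edgeR adjusted p = 0.00037), 4.13 after length correction, 4.85 without LPS replicate 1 and 2.44 without LPS replicate 2. Rab33a had 0.908 CPM in LPS replicate 1, within the control range of 0.563 to 0.929 CPM, and 4.54 CPM in LPS replicate 2.

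**Figure D2:**
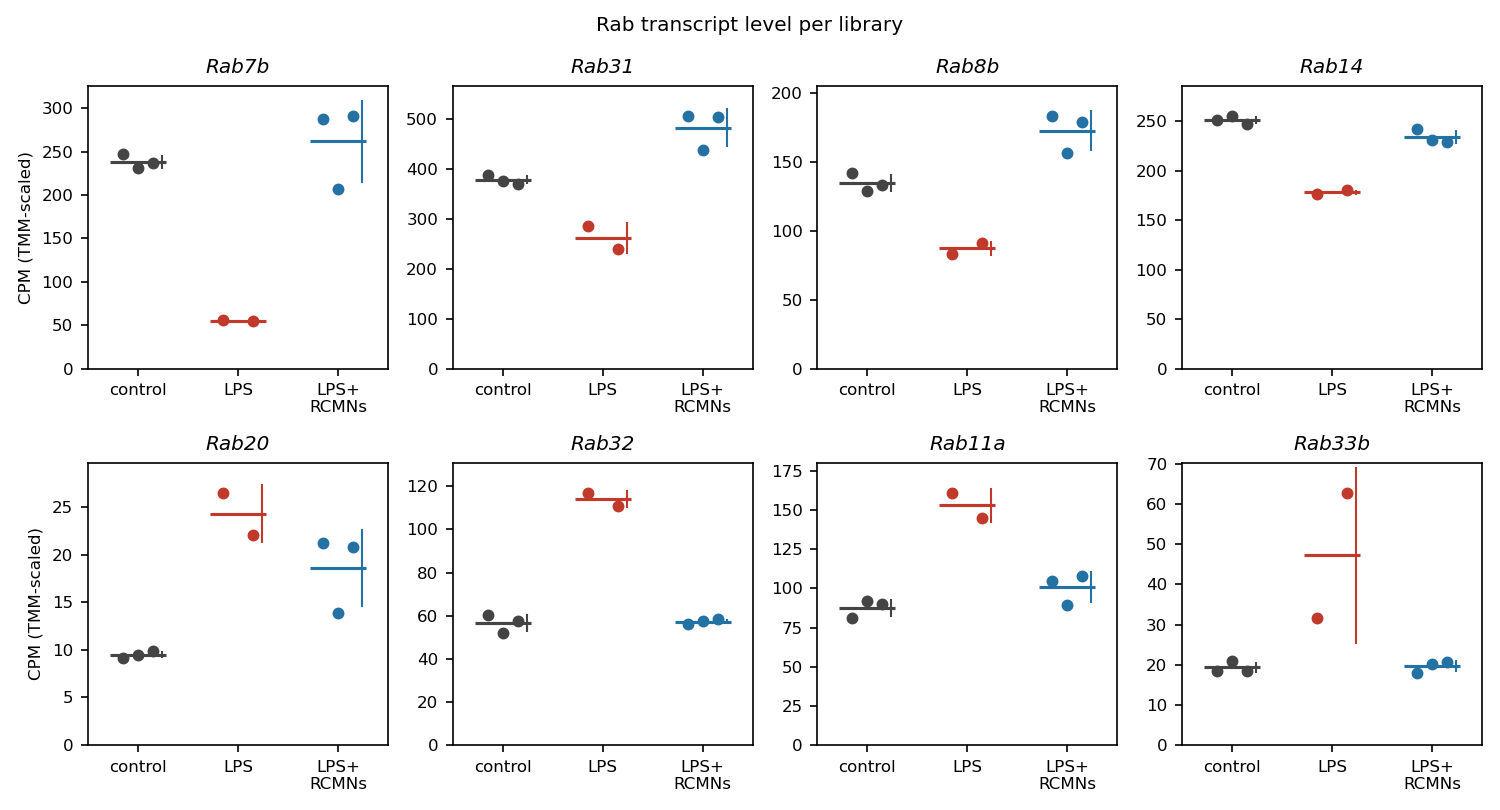
Points are single libraries, in TMM-scaled CPM from 0, for 8 Rab genes; horizontal lines are group means and vertical lines the SD (n = 3 for control and LPS+RCMNs, n = 2 for LPS). The LPS libraries lie below the other groups in the upper row and above the control in the lower row, and the Rab20 levels with LPS+RCMNs, 13.9 to 21.2 CPM, lie above all controls.

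**Figure D3:**
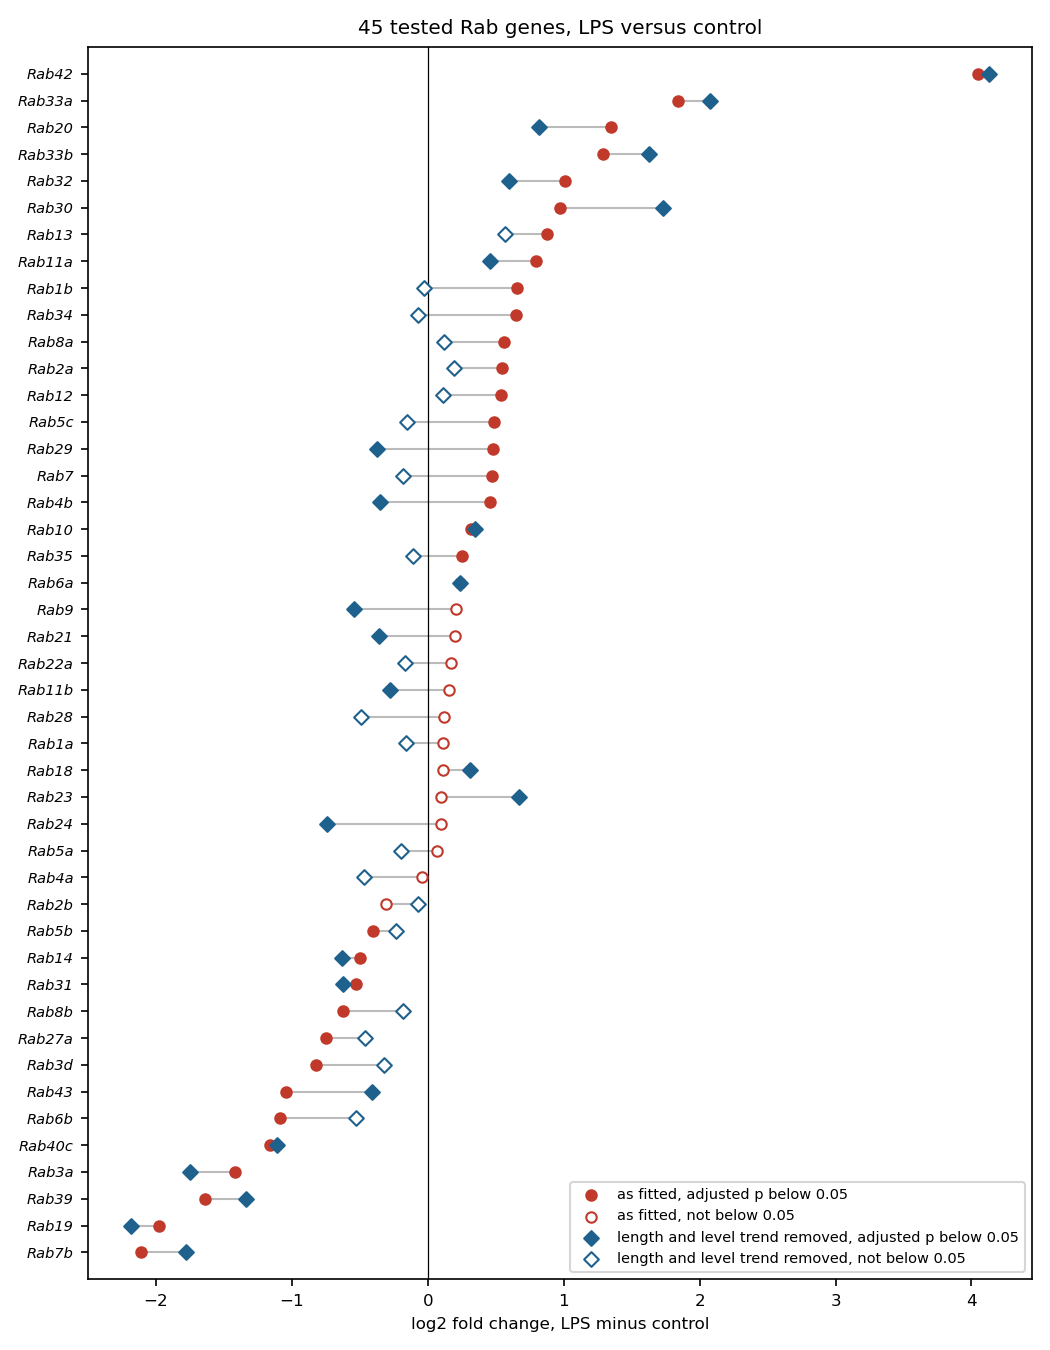
Each row is a tested Rab gene and the x axis is the log2 fold change, LPS minus control. Circles are the values as fitted and diamonds those after removal of the trend on length and level, filled where the adjusted p was below 0.05. In both fits 9 members were called higher and 8 lower, and the matching share of all genes was not computed.

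Called in the same direction before and after length correction were 9 members that rose (Rab6a, Rab10, Rab11a, Rab20, Rab30, Rab32, Rab33a, Rab33b and Rab42) and 8 that fell (Rab3a, Rab7b, Rab14, Rab19, Rab31, Rab39, Rab40c and Rab43). Over all genes, 63.4% were called as fitted and 42.8% after length correction. The share of all genes called the same way in both fits, or in only 1 of them, was not computed. Members outside the naming rule, here and in the comparisons that follow, were named after their values were seen. Some of these members lost the fitted call with 1 LPS library left out. Without LPS replicate 1 the values were 0.17 for Rab6a (adjusted p = 0.182), 0.26 for Rab10 (adjusted p = 0.131) and -1.12 for Rab3a (adjusted p = 0.0671). Without LPS replicate 2 they were 0.48 for Rab30 (adjusted p = 0.385) and 0.31 for Rab33a (adjusted p = 0.665), against 0.97 and 1.84 as fitted. The Rab6a call was also lost without control replicate 3 or LPS+RCMNs replicate 1, the Rab30 call without control replicate 1 or 3 or LPS+RCMNs replicate 1 or 3, and the Rab33a call without control replicate 1. A further 14 were called only before it, among them Rab1b, Rab5c, Rab7, Rab8a and Rab8b, and 6 only after it. Rab4b and Rab29 were called in both with opposite signs. The members that rose as fitted had a median length of 2.04 kb and those that fell 3.15 kb, with 2.28 kb over all tested members and 2.82 kb over all genes. After correction, rho of log2 fold change with length across the members was 0.19. Rab30 is an exception to the direction of the trend, with an implied length of 15.19 kb that is imprecise because its FPKM is at most 0.18.

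**Figure D4:**
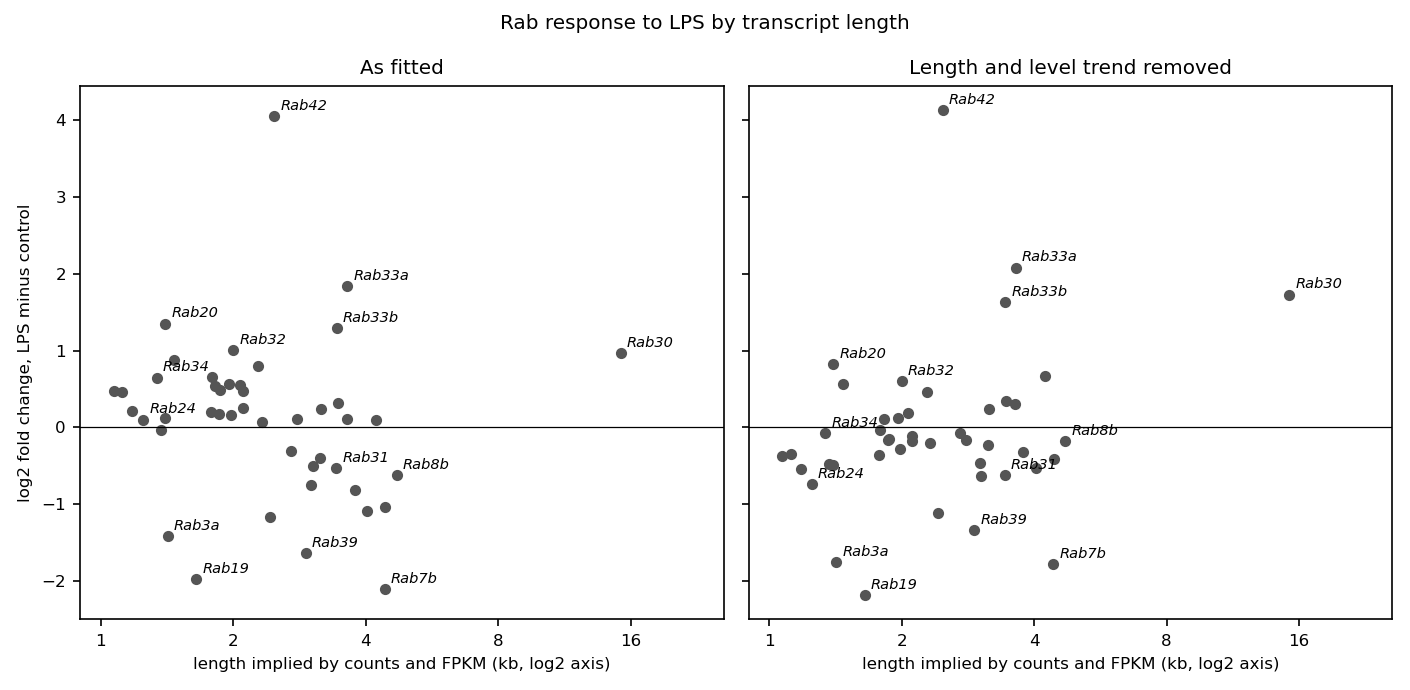
Points are the 45 tested Rab genes, with length in kb on a log2 axis and log2 fold change, LPS minus control, on the y axis. As fitted (left), members shorter than their median of 2.28 kb lie mostly above 0, and with the trend on length and level removed (right) they lie on both sides of 0; Rab7b and Rab19 stay low and Rab20, Rab33b and Rab42 high.

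LPS+RCMNs against LPS shows how the family stood when the nanoparticles were present. This comparison shares the 2 LPS libraries with the previous one, and the values of a member in both are given side by side without a test of one against the other. Of the 45 members 12 were higher with LPS+RCMNs, 17 lower and 16 not called, or 64.4%, against 59.3% of all genes (29.8% higher and 29.5% lower). The median was -0.13 over the members and 0.03 over all genes. After length correction 12 were higher, 7 lower and 26 not called, against 38.4% of all genes (19.4% higher and 19% lower), and the median was 0.16. On log2(FPKM + 1), where the median of all genes moved to 0.27, 22 were higher and 5 lower, against 45.7% and 17.8% of all genes.

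The highest rise as fitted was that of Rab7b, with a log2 fold change of 2.25 (SE 0.16, edgeR adjusted p = 5.51e-06), 1.88 after length correction and 1.75 to 2.64 over the alternatives. Rab19 was at 1.62 as fitted (edgeR adjusted p = 0.000327) and at 1.89 after length correction. Rab8b followed among the members with a mean FPKM of at least 5, with 0.98 (SE 0.11, edgeR adjusted p = 5.48e-05) and 0.52 after length correction (adjusted p = 0.0054). Rab31 rose by 0.88 (SE 0.11, edgeR adjusted p = 0.000128), Rab40c by 0.81 (SE 0.20, edgeR adjusted p = 0.00578) and Rab14 by 0.40 (SE 0.08, edgeR adjusted p = 0.00241) on the log2 scale. The last 3 kept their direction after length correction, at 0.89, 0.82 and 0.47. Rab40c was no longer called without LPS replicate 1. Rab39, with fewer counts, rose by 1.85 (SE 0.26, edgeR adjusted p = 0.000272), or 1.65 after length correction, and Rab27a had 0.67 (SE 0.24, edgeR adjusted p = 0.0363) with its call lost under 7 of 19 alternatives, among them the omission of either LPS library or of LPS+RCMNs replicate 2 or 3.

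On the other side, the largest falls as fitted were those of Rab42 and Rab33a, both with a mean FPKM below 5. Rab42 had -3.52 (SE 0.60, edgeR adjusted p = 0.0008), or -3.54 after length correction, and -4.29 and -1.88 without LPS replicate 1 or 2. Rab33a had -2.01 (SE 0.61, edgeR adjusted p = 0.018), and -0.47 without LPS replicate 2. Among members with a mean FPKM of at least 5, Rab33b had a log2 fold change of -1.27 (SE 0.24, edgeR adjusted p = 0.00138) and Rab32 of -0.99 (SE 0.09, edgeR adjusted p = 2.41e-05). Both Rab33b and Rab32 were called under all 20 alternatives. Their length-corrected values were -1.56 and -0.60. The Rab33b value was -1.70 without LPS replicate 1 and -0.73 without LPS replicate 2. Rab34 fell by 1.01 on the log2 scale (SE 0.13, edgeR adjusted p = 0.000125), with -0.29 after length correction, where the call was lost. Rab8a had -0.61 (SE 0.13, edgeR adjusted p = 0.00322), Rab11a -0.60 (SE 0.11, edgeR adjusted p = 0.00134) and Rab12 -0.59 (SE 0.10, edgeR adjusted p = 0.000876), and these 3 calls were lost after length correction and on log2(FPKM + 1). Rab20 had -0.38 (SE 0.19, edgeR adjusted p = 0.11) in CPM, where the 2 LPS libraries lay above the 3 with LPS+RCMNs. Its sign turned to 0.19 after length correction, to 0.27 with a trend on length alone removed and to 0.02 on log2(FPKM + 1), and it did not pass the test under any of 20 alternatives. Rab5a, Rab5b, Rab5c, Rab1a, Rab10, Rab22a and Rab35 did not pass the test as fitted, with log2 fold changes between -0.25 and 0.19. Rab5c was called at -0.42 without LPS replicate 2 (adjusted p = 0.0275), and also without LPS+RCMNs replicate 2. By role, against 29.8% of all genes higher and 29.5% lower, late endosome and lysosome Rabs had 1 higher and 6 lower of 8, exocytic Rabs 4 higher and 2 lower of 7, early endosome Rabs 1 higher and none lower of 7, recycling Rabs 1 higher and 3 lower of 6, and endoplasmic reticulum and Golgi Rabs 3 higher and 5 lower of 12. After length correction the late endosome and lysosome count was 2 higher and 1 lower, against 19.4% and 19% of all genes. In the order above, the other roles then had 2 and 0, 3 and 0, 2 and 0, and 1 and 4. The direction of the recycling Rabs thus depended on the correction, with a median of -0.16 as fitted and 0.31 after it. The medians of the late endosome and lysosome Rabs (-0.55 and 0.23) and of the early endosome Rabs (-0.13 and 0.19) also turned sign. On log2(FPKM + 1) the late endosome and lysosome count was 1 higher and 2 lower, against 45.7% and 17.8% of all genes. The other roles had 5 and 0, 4 and 0, 2 and 0, and 7 and 2.

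LPS+RCMNs against control compares cells that received both agents with untreated cells, and it shares libraries with both other comparisons. Of 45 members 2 were higher, 1 lower and 42 not called, or 6.7%, against 7.56% of all genes (4.33% higher and 3.23% lower). After length correction 1 was higher and 1 lower, against 7.46% of all genes (4.48% higher and 2.97% lower). Rab20 was higher, with a log2 fold change of 0.97 (SE 0.17, edgeR adjusted p = 0.0116) and 1.01 after length correction. The call was lost without LPS+RCMNs replicate 1 or without replicate 3, with a range of 0.80 to 1.17 over the alternatives. Rab8b was higher by 0.36 (SE 0.09, edgeR adjusted p = 0.047), a call lost under 13 of 20 alternatives, among them the omission of control replicate 2 or 3, of either LPS library, or of LPS+RCMNs replicate 1 or 3. Rab43, a Golgi Rab, had 23.8, 21.6 and 22.6 CPM in control, 11.1 and 10.9 CPM with LPS, and 15.1, 16 and 15 CPM with LPS+RCMNs, and was lower by 0.56 on the log2 scale (SE 0.10, edgeR adjusted p = 0.0133), or by 0.47 after length correction. The call was lost with the replicate block (adjusted p = 0.0588) and without control replicate 3 (0.0682), LPS+RCMNs replicate 1 (0.0685) or LPS+RCMNs replicate 3 (0.0923), with values of -0.62 to -0.47 over the alternatives. Of its transcript's 75-base words 90.3% are shared with the read-through gene Gm45140, which is not among the listed genes, so the source of its reads is uncertain. The same holds for Rab4b, which shares 92.9% with Gm21983. To a lesser degree Rab7 shares 12.0% with Rab7-ps1, Rab5b 10.5% with Gm13991 and Rab33b 3.3% with other genes. Rab31 was at 0.35 (SE 0.10, edgeR adjusted p = 0.059) with no overlap between the groups, and it was called under 6 of 20 alternatives, among them the omission of LPS replicate 2 or LPS+RCMNs replicate 2. Rab7b had 0.14 (SE 0.13, edgeR adjusted p = 0.574), Rab32 0.02 (SE 0.08, edgeR adjusted p = 0.934) and Rab14 -0.10 (SE 0.07, edgeR adjusted p = 0.455).

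The counts of this comparison moved by over 1.5 times with the 2 libraries that stood apart. Without control replicate 1 and LPS+RCMNs replicate 2, 12 members were called, 11 higher and 1 lower, against 25.5% of all genes called (14.8% higher and 10.6% lower). The 11 were Rab20 (1.15), Rab8b (0.50), Rab4a (0.48), Rab31 (0.46), Rab7b (0.34), Rab6a (0.32), Rab10 (0.30), Rab1a (0.29), Rab21 (0.28), Rab35 (0.28) and Rab11a (0.26), in log2 fold change, and Rab43 was lower (-0.53). In the LPS comparison, which shares the control libraries, the same omission gave 27 higher and 13 lower, against 74.9% of all genes. The members called there and not with all libraries were Rab28 (0.48), Rab9 (0.48), Rab22a (0.35), Rab1a (0.21), Rab21 (0.21), Rab5a (0.20), Rab11b (0.19) and Rab18 (0.16), while Rab30 lost its call (0.78, adjusted p = 0.053). In LPS+RCMNs against LPS it gave 11 higher and 22 lower, against 73.8% of all genes. Gained were Rab28 (-0.65), Rab5c (-0.35), Rab22a (-0.28), Rab5a (-0.20) and Rab18 (-0.19), and Rab3a lost its call (0.77, adjusted p = 0.0561).

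Shares of summed FPKM show close paralogs against each other, as a description. Rab7b made up 20.4%, 21.4% and 22.2% of Rab7 and Rab7b together in control, 4.0% and 4.7% with LPS, and 22.6%, 17.9% and 23.8% with LPS+RCMNs. The control and LPS+RCMNs shares overlapped and the LPS shares lay below both. Rab8b made up 42.5%, 45.6% and 47.3% of Rab8a and Rab8b in control, 24% and 29.1% with LPS, and 53.8%, 47.9% and 54.1% with LPS+RCMNs. These 3 ranges did not overlap. Rab8a and Rab8b differ in implied length, 1.96 and 4.70 kb, as do Rab7 and Rab7b, 2.11 and 4.42 kb, and the trend on length was not removed from these shares. Rab11a made up 49.9% to 52.3% of the Rab11 pair in control, 61.2% and 59.2% with LPS, and 58.8%, 52.8% and 59.4% with LPS+RCMNs, and this pair is close in length (2.28 and 1.98 kb). Within Rab5, Rab5c took 62.2% to 64.5% in control, 73.5% and 70.5% with LPS, and 68.1% to 69.8% with LPS+RCMNs, and Rab5b took 10.9% to 12.0%, then 7.0% and 6.8%, then 8.9% to 9.2%. Rab1b was 44.7% to 45.6% of the Rab1 pair in control, 57.1% and 51.3% with LPS, and 40.6% to 46.5% with LPS+RCMNs. Rab31 was 87.1% to 89.4% of Rab22a and Rab31 in control, 82.9% and 82.1% with LPS, and 89.3% to 91.7% with LPS+RCMNs. Rab1a and Rab1b differ in implied length too (2.8 and 1.79 kb), as do Rab5b and Rab5c (3.15 and 1.87 kb). So do Rab22a and Rab31 (1.86 and 3.43 kb), and the trend was not removed from their shares either. As fitted, the log2 fold changes with LPS were 0.66 for Rab1b and 0.11 for Rab1a, and after length correction -0.03 and -0.16. Rab5c and Rab5b went from 0.49 and -0.40 to -0.15 and -0.23, and Rab31 and Rab22a from -0.53 and 0.17 to -0.62 and -0.17.

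**Figure D5:**
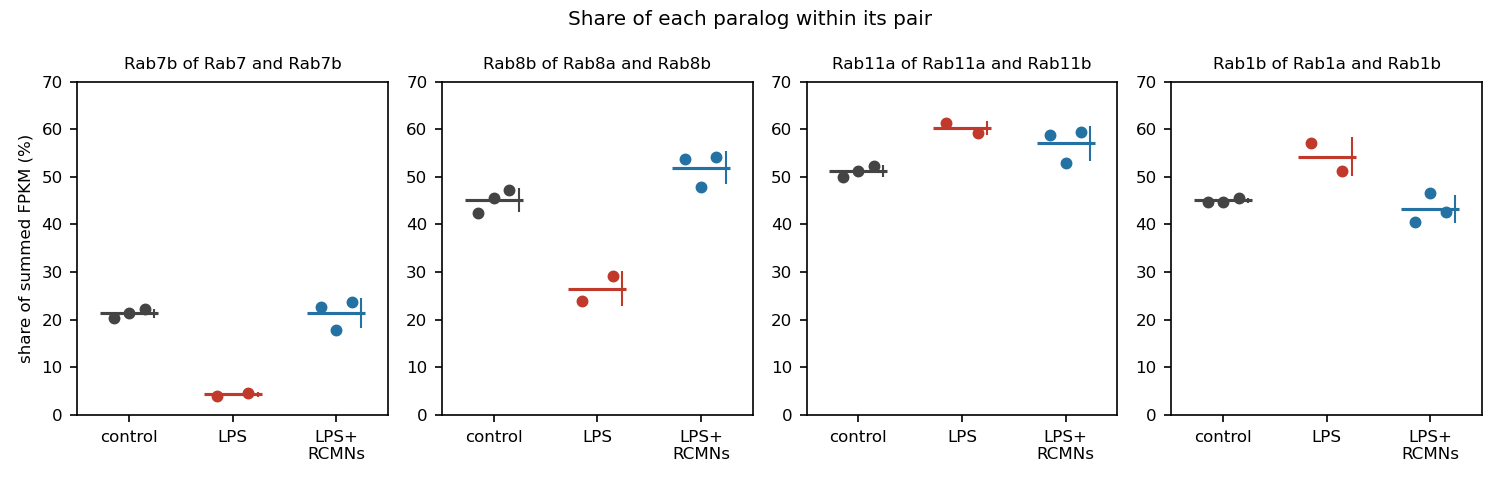
Points are single libraries, and the y axis is the share (%) of the named gene in the summed FPKM of its pair; lines are the mean and SD (n = 3, 2 and 3). The Rab7b share was 4.0% and 4.7% with LPS and 17.9% to 23.8% in the other libraries.

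Genes that act on Rabs were taken from 4 lists with 140 listed members, of which 131 were tested. With LPS 21 were higher, 76 lower and 34 not called (74.0%, against 63.4% of all genes, of which 31.4% higher and 32.1% lower), with a median log2 fold change of -0.51. After length correction the numbers were 21 higher, 28 lower and 82 not called, against 21.5% and 21.3% of all genes, and the median was -0.07. On log2(FPKM + 1) they were 9 higher and 96 lower (median -0.84), against 17.7% and 49.7% of all genes. The counts by list stand against these same shares. Of 46 exchange factors 10 rose and 31 fell as fitted (5 and 15 after correction), and of 32 GTPase-activating proteins 2 rose and 18 fell (3 and 5). Of 45 effectors 4 rose and 25 fell (11 and 8), and of 8 genes for prenylation and GDP dissociation inhibitors 5 rose and 2 fell (2 and 0).

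Plekhm1, an effector that ties Rab7 to the lysosomal tethering complex, had 111, 76.6 and 75.2 CPM in control, 5.21 and 8.06 CPM with LPS, and 96.7, 59.0 and 96.7 CPM with LPS+RCMNs. It fell by 3.72 on the log2 scale with LPS (SE 0.32, edgeR adjusted p = 1.26e-05), or -2.89 after length correction, and its log2 fold change in LPS+RCMNs against LPS was 3.66. Mical1, an actin-oxidising enzyme that binds Rabs, fell by 3.05 with LPS (SE 0.31, edgeR adjusted p = 3.15e-05), from 43.7, 27.4 and 27.6 CPM to 3.21 and 4.73 CPM, and had 28.3, 19.6 and 29.1 CPM with LPS+RCMNs. Rin2, an exchange factor for Rab5, had 397, 372 and 373 CPM in control, 88.1 and 87.5 CPM with LPS, and 262, 173 and 251 CPM with LPS+RCMNs. The 3 groups did not overlap, and Rin2 was lower than in control both with LPS (-2.11, SE 0.17, edgeR adjusted p = 9.66e-06) and with LPS+RCMNs (-0.73, SE 0.14, edgeR adjusted p = 0.0168). The latter call was lost without control replicate 2 or 3, without LPS+RCMNs replicate 3, and in a fit to the compared groups alone, with values of -0.84 to -0.51 over the alternatives. Dennd1b, an exchange factor for Rab35, fell by 1.91 with LPS (SE 0.17, edgeR adjusted p = 1.62e-05), and Usp6nl, which switches off Rab5, fell by 1.53 (SE 0.17, edgeR adjusted p = 6.44e-05). After length correction they were at -0.81 and -0.66 and still called. Tbc1d2b, with -1.09 as fitted, was at -0.26 after it (adjusted p = 0.342).

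Micall2, an effector of Rab8 and Rab13 that binds actin, had 20.3, 20.3 and 20.0 CPM in control, 35.7 and 33.3 CPM with LPS, and 41.9, 42.6 and 45.9 CPM with LPS+RCMNs. It was higher than in control in both treated groups, with log2 fold changes of 0.77 (SE 0.10, edgeR adjusted p = 0.000119) and 1.11 (SE 0.09, edgeR adjusted p = 0.000227), and higher with LPS+RCMNs than with LPS by 0.33 (SE 0.10, edgeR adjusted p = 0.0157), the last being 0.12 after length correction (adjusted p = 0.325). Rilpl2, which binds phosphorylated Rab8 and Rab10, rose with LPS by 1.51 (SE 0.25, edgeR adjusted p = 0.000656), or 0.68 after length correction. Rabggtb, a subunit of the Rab prenyl transferase, had 70.4, 88.0 and 88.2 CPM in control, 196 and 234 CPM with LPS, and 84.3, 82.0 and 88.6 CPM with LPS+RCMNs, a log2 fold change with LPS of 1.39 (SE 0.12, edgeR adjusted p = 1.42e-05) and 0.46 after length correction. The short transcripts Trappc2 and Trappc4, subunits of the TRAPP tethering complex that activates Rab1, had 1.04 and 1.06, and 0.54 and 0.05 after length correction, where only Trappc2 was called. Rabac1, a prenylated Rab acceptor, had 1.01 as fitted and -0.17 after length correction, and Tbc1d7, also a subunit of the TSC complex, had 0.62 and -0.01, with the fitted call lost without control replicate 2 or 3 or LPS replicate 1. The escort proteins Chm and Chml had -0.62 and -0.95 as fitted, and 0.00 and -0.06 after length correction. In LPS+RCMNs against control 5 of the 131 partners were higher and 5 lower (7.6%, against 7.56% of all genes).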

How the data were processed

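Gene expression values came from 1 deposited table with 2 measures per library. The authors made its expected count (an estimated count per gene) and its FPKM from their reads, and both are named so per the file headers. Most counts are not whole: 77.8% of those above 0 lay over 0.001 away from one. FPKM, scaled by the authors to gene length and library depth, has no TMM scaling. Per the labels' protocols, polyadenylated RNA was captured on oligo(dT) beads and made into libraries with a BGI kit. The submitters' processing notes name build mm10, while for the aligner, counter, strand setting and annotation the sources used here give no name. The code in a sample's description linked it to its columns, and 4 columns whose code matches no sample stayed out.

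Rounded counts went through filterByExpr and TMM into the quasi-likelihood test of edgeR (R 4.3.3, edgeR 4.0.16 and limma 3.58.1), fitted over all 8 libraries in 3 groups. Benjamini-Hochberg adjustment ran over 11911 genes, calls needed an adjusted p below 0.05, and no fold was required. The biological coefficient of variation was 14.5%. LPS libraries had TMM factors of 0.779 and 0.803, the others 1.05 to 1.13. A gene's length is the one its count and FPKM imply. Length correction subtracts from each library a smooth surface over length and mean level (loess, span 0.4). The fit was tested on counts simulated with known changes. These held no trend on length and no library that stood apart, so that test cannot judge how the fit handles either.

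Alternatives were a fit to the compared groups alone, a block for the replicate number, omission of each library, joint omission of control replicate 1 and LPS+RCMNs replicate 2, no filter, a filter asking for an FPKM of 5 in 2 libraries, median-ratio size factors, a robust prior, DESeq2 1.42.0, limma on log2(FPKM + 1) and log2(FPKM + 0.1), removal of a length trend or of the surface above, and a minimum log2 change of 1.

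The members, role lists, partner lists, tests and alternatives were chosen with earlier results of these data known. Named members were, for each comparison, up to 6 rises and 6 falls called with groups that did not overlap and an average FPKM of 5 or more, then 20 fixed members, then up to 2 rises and 2 falls with LPS in each partner list. Shared sequence was counted as 75-base words of each gene's longest transcript found in other genes of the GENCODE M21 annotation.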

Additional observations from a re-analysis of the deposited data

How the results depend on the processing

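Of 2451 log2 fold changes of named genes under the alternatives, 2147 kept their direction and side of the threshold, 165 lost a call, 36 gained one, 45 turned sign with a call in at least 1 of the fits, and 58 turned sign with a call in neither. With LPS against control, 33 Rab genes were called, 12 with the fold minimum. The 20 higher became 12 with the length trend removed, 11 with the length and level surface removed, 5 and 6 on log2(FPKM + 1) and log2(FPKM + 0.1), and 5 with the fold minimum. The 13 lower became 8 under the stricter filter, 23 on both FPKM scales and 7 with the fold minimum. The 97 partner calls became 51 with the length trend, 49 with the surface and 39 with the fold minimum. For LPS+RCMNs against LPS, the 29 calls became 19 with the surface and 8 with the fold minimum. The 12 higher became 7 under the stricter filter, 22 on both FPKM scales and 3 with the fold minimum, and ran from 7 to 12 with 1 library left out. The 17 lower became 5 on both FPKM scales, 9 with the length trend, 7 with the surface and 5 with the fold minimum. The 91 partner calls became 47 with the length trend, 46 with the surface and 34 with the fold minimum. For LPS+RCMNs against control, the 3 calls became 12 without control replicate 1 and LPS+RCMNs replicate 2, 5 under the stricter filter, 7 with DESeq2, 5 with the length trend and 0 with the fold minimum, and ran from 0 to 7 with 1 library left out. The cause of these moves was not tested, except that the fold minimum and the stricter filter remove genes by construction. Calls over all genes moved too, from 63.4% to 42.8% with the surface in LPS against control, and from 59.3% to 38.4% in LPS+RCMNs against LPS. On log2(FPKM + 1), 17.7% were higher and 49.7% lower in the former, and 45.7% and 17.8% in the latter. For LPS+RCMNs against control, 7.56% became 25.5% with the joint omission. Shares of all genes under the remaining settings are not given here.

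Signs of log2 fold changes called in at least 1 of the fits turned as follows, with log2(FPKM + 1) before log2(FPKM + 0.1). With LPS against control they were -0.17 and -0.17 for Rab10, -0.21 and -0.22 for Rab11b, -0.37 and -0.38 for Rab1a, -0.22 and -0.23 for Rab35, -0.40 and -0.42 for Rab5a, and -0.02 and -0.02 for Rab7. The length and level surface gave -0.28 for Rab11b, -0.03 for Rab1b, -0.07 for Rab34, -0.11 for Rab35, -0.15 for Rab5c, -0.18 for Rab7, -0.17 for Rabac1 and -0.01 for Tbc1d7, and the length trend -0.03 for Rab34, -0.14 for Rabac1 and -0.17 for Tbc1d7. For LPS+RCMNs against LPS, the FPKM scales gave 0.29 and 0.29 for Rab10, 0.01 and 0.01 for Rab11b, 0.40 and 0.42 for Rab35, 0.28 and 0.28 for Rab5a, and 0.08 and 0.08 for Rab7. The surface gave 0.10 for Rab11b, 0.03 for Rab1b, 0.34 for Rab35, 0.33 for Rab5c, 0.22 for Rab7, -0.07 for Chml, 0.18 for Rabac1 and 0.07 for Tbc1d7, and the length trend -0.02 for Chml, 0.16 for Rabac1 and 0.18 for Tbc1d7. Plekhm1 turned to 0.38 in LPS+RCMNs against control without control replicate 1 and LPS+RCMNs replicate 2. Of the turns with a call in neither fit, 36 were in LPS+RCMNs against control. In LPS against control they were those of Rab22a (-0.29 and -0.31 on the FPKM scales, -0.19 with the length trend, -0.17 with the surface), Rab5a (-0.08 with the trend, -0.20 with the surface), Rab1a (-0.16 with the surface) and Rab11b (-0.14 with the trend). In LPS+RCMNs against LPS they were those of Rab20 (0.02 on both FPKM scales, 0.27 with the trend, 0.19 with the surface), Rab22a (0.21, 0.23, 0.17 and 0.16), Rab5c (0.17 on both FPKM scales, 0.10 with the trend), Rab5a (0.02 with the trend, 0.12 with the surface) and Rab1a (-0.01 without LPS replicate 2).

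Same-numbered libraries of different groups had correlations of deviations from -0.34 to 0.20, and differently numbered ones from -0.31 to 0.38. The deviations are from group means, so the 2 LPS libraries mirror each other. These values therefore cannot decide whether replicate numbers pair the libraries. With the replicate block, 1 Rab gene was called in LPS+RCMNs against control in place of 3, and the other counts moved by less than 1.5 times. With 2 LPS libraries, a lone library was assumed to vary like the other groups when its partner was left out. The depth allows no statement on members under the floor of 3 counts.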
